A study of Mus musculus with 48 samples.

Results

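*Spic*, the 3 *Trim43* genes and 4 genes of the *Prame* family are genes of the early preimplantation embryo, and their counts were followed in 48 single cells of the mouse inner cell mass (ICM) at E3.75, the embryonic day counted from mating, when the progenitors of epiblast (pEPI) and of primitive endoderm (pPrE) begin to separate. The group holds 8 of the 49671 genes in the count table, namely *Spic*, *Trim43a*, *Trim43b*, *Trim43c*, *Gm13102*, *Pramel5*, *Pramel6* and *Pramel7*, each found by its Ensembl identifier. These genes were chosen by their measured levels in the same cells, as genes kept in pEPI and lost in pPrE, so their difference between the branches is given as a description and was not tested. The values followed this label for 6 of the 8 genes, whose means were at least 2-fold lower in pPrE cells, as were those of 9.03% of all genes tested. *Pramel6* was at similar levels in both branches and *Pramel7* was higher in pPrE cells.

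The cells came from 3 blastocysts of an intercross of *Pdgfra* H2B-GFP/+ mice, in which a histone fused to green fluorescent protein is targeted to the *Pdgfra* locus, with F1 hybrids (C57BL/6JxCBA/J). By the study's methods the embryos were *Pdgfra* H2B-GFP/+ and were picked for a mixed pattern and a suitable intensity of GFP in the ICM, so each cell carries a targeted *Pdgfra* allele, while the sample titles call the cells WT. Embryos were obtained by natural mating, the trophectoderm was removed by immunosurgery, and cDNA of single dissociated cells was made along whole transcripts by Smart-seq2, in which no molecular identifiers are used. No label gives the embryo or the lineage of a cell. The 48 cells were therefore taken as 1 sample, SDs describe the spread between cells, and no p-value was computed. The branches, with 25 pEPI and 23 pPrE cells, are those of the dendrogram of the study, read by eye. That dendrogram was itself built on the expression of the 48 cells.

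*Spic* encodes an ETS transcription factor of the SPI group, which is best known from macrophages of the spleen. *Trim43a*, *Trim43b* and *Trim43c* encode TRIM proteins, a class with RING, B-box and coiled-coil domains, and are transcribed in preimplantation embryos. PRAME proteins are built of leucine-rich repeats, and many serve as the substrate-binding part of cullin 2 ubiquitin ligases. The family is expanded in the mouse, with members in the germ line, the oocyte and the early embryo. PRAMEL7 is known from naive pluripotent cells, where it directs the degradation of UHRF1, the factor that brings DNA methyltransferase 1 to replicated DNA. NANOG and GATA6 are the transcription factors that mark pEPI and pPrE.

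A cell held 1718970 to 7342785 counts in all (median 4017082). The branches were set beside markers, which is no independent check since the dendrogram was built on expression of the same cells. All 10 listed pEPI markers had a mean of at least 1 FPKM (counts scaled for exon length and library size). Of these, 6 were at least 2-fold lower in pPrE cells and none was at least 2-fold higher. Of 12 listed pPrE markers 10 had that mean, and all 10 were at least 2-fold higher. Over all genes tested, 9.03% were lower and 6.2% higher by that much. A marker score was taken as the mean standardized level of the pPrE markers minus that of the pEPI markers. Its sign placed 2 cells on the side of the other branch, the pEPI cells in wells A3 (0.10) and E7 (0.47). *Cdx2*, which defines trophectoderm, had 60 counts in all, in 3 cells. The sum of counts on 4 Y-linked genes (*Kdm5d*, *Uty*, *Ddx3y* and *Eif2s3y*) was at least 100 in 29 cells and lower in the other 19. The 29 cells include 17 pEPI and 12 pPrE cells, and the 19 cells include 8 pEPI and 11 pPrE cells. The embryo of origin and this split cannot be told apart, and values within each set of cells are given beside the results.

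The 8 genes lie at 4 places of the genome (GRCm38, GENCODE M21). *Spic* is on chromosome 10 (chr10:88674772-88685015, minus strand). The *Trim43* genes are on chromosome 9, *Trim43a* at chr9:88580891-88588819 and *Trim43c* at chr9:88839164-88848190 on the plus strand and *Trim43b* at chr9:89084624-89092835 on the minus strand. *Gm13102* (chr4:144106474-144110101, plus strand) and *Pramel5* (chr4:144270633-144280488, minus strand) belong to the large *Prame* cluster of chromosome 4. *Pramel7* (chr2:87489087-87497093, minus strand) and *Pramel6* (chr2:87506565-87510872, plus strand) are neighbours on chromosome 2. All 8 are annotated as protein-coding.

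Several of the genes are near copies of each other, and this bears on how their reads can be told apart. Over aligned coding bases *Trim43a* and *Trim43b* were 98.4% identical, *Trim43a* and *Trim43c* 96.9%, and *Trim43b* and *Trim43c* 97.8%. The 2 windows of 90 coding bases below are, of the windows without a gap, among those in which *Trim43a* differs most from *Trim43b* (the upper) and from *Trim43c* (the lower). They are shown because such positions are what separates the reads of the 3 genes. Capitals mark bases that are not the same in all 3. Coding bases 991 to 1080 are, from GENCODE M21,
Trim43a: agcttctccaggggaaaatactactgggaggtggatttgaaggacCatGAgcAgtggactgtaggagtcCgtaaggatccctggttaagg
Trim43b: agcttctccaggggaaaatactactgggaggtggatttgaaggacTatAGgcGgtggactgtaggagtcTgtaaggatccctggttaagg
Trim43c: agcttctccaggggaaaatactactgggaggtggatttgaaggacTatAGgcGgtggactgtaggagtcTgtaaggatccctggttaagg

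In this window *Trim43b* and *Trim43c* carry the same letters, and 5 bases set *Trim43a* apart. Coding bases 91 to 180 are
Trim43a: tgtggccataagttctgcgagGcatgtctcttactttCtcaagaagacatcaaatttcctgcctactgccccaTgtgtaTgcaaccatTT
Trim43b: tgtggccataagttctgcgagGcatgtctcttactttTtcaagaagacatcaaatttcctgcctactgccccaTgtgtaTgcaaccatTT
Trim43c: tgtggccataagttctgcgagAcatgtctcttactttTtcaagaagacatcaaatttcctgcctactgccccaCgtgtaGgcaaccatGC

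Here 6 bases differ and *Trim43c* stands apart from the other two at most of them. Of all windows of 150 bases, the read length, in the annotated transcripts, 2.74% of those of *Trim43a*, 5.57% of those of *Trim43b* and 19.5% of those of *Trim43c* also occurred letter for letter in another gene. By the letters of the reference, reads of *Trim43a* and *Trim43b* can thus mostly be placed. Bases in which these mice differ from the reference, and read errors, were not taken into account. The split of counts among the *Trim43* genes shares this limit. *Trim43c* also overlaps the antisense gene *9330159M07Rik*, and whether the counting used strand is not given in the sources used here. *Spic*, *Pramel5*, *Pramel6* and *Pramel7* shared no window with another gene. *Gm13102* is the exception of the group, because 87.2% of its windows also occurred in *Pramel4*, its neighbour in the cluster. The coding sequences of these genes differed at 1 of 1512 aligned bases. *Gm13102* counts therefore rest on a small stretch of unique sequence, and its level per length is uncertain.

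The stretch before the start also links members. RefSeq (GRCm38.p6) gives promoter sequences for 6 of the 8 genes, and of these *Gm13102* and *Pramel5* are shown, because the 250 bases before their starts were 96.96% identical over 230 aligned bases and their levels moved together within pEPI cells, as described further on. Capitals mark bases that differ or have no counterpart in the other gene. The RefSeq start of *Gm13102* lies before the start of the GENCODE gene. The stretch shown ends at chr4:144099879 and the GENCODE gene begins at chr4:144106474. It is thus not the stretch directly before the gene model used for the level of *Gm13102*. The sequences are those of chr4:144099630-144099879 (plus strand) and chr4:144280467-144280716 (minus strand), each read 5′ to 3′ along its gene.
Gm13102: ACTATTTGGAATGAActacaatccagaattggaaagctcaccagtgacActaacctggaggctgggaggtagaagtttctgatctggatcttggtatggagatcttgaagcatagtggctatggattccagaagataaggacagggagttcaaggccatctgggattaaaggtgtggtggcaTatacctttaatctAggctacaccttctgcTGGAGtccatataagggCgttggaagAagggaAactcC
Pramel5: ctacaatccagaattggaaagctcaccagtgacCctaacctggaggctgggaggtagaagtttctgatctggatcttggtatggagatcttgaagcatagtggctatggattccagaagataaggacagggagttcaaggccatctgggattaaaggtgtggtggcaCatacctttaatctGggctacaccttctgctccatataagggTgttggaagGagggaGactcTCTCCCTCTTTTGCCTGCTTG

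Both hold the letters TCAAGGNCA once on the plus strand, which ESRRB and NR5A2 bind in early embryos and embryonic stem cells. The match begins 101 bases before the start of *Gm13102* and 116 bases before that of *Pramel5*. These letters, searched on both strands, occur in 456 of 32851 promoters of the same length (1.39%), and not in those of *Spic*, *Trim43a*, *Pramel6* or *Pramel7*. The letters TTCNNNGAA of STAT factors (7.02% of promoters) and ATGCAAAT of POU factors (1.601%) were in none of the 6. The PU box of the SPI group, GAGGAA, was in that of *Pramel6* alone, and 23.3% of promoters hold it. A match is a description of letters and not of binding. For *Spic* and *Pramel7* the RefSeq start lies inside the GENCODE gene. The stretches searched for these genes, and that of *Gm13102* as given above, are therefore not those before the gene models used for their levels.

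*Trim43a* was the most abundant member in pEPI cells per length, and *Trim43a*, *Spic* and *Gm13102* were detected in every pEPI cell. Means in pEPI and pPrE cells differed at least 2-fold, to the side of pEPI, for 6 of the 8 genes. Among all genes tested, 9.03% of 10880 with a mean of at least 1 FPKM were lower by that much in pPrE cells, and 6.2% were that much higher. Since the members were chosen for this difference, nothing is read from their count. From the most strongly lower gene onward, *Trim43c* was at place 64, *Trim43a* at 90, *Trim43b* at 94, *Gm13102* at 103, *Spic* at 143 and *Pramel5* at 296. *Pramel6* was at place 2488 and *Pramel7* at 9560.

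**Figure D1:**
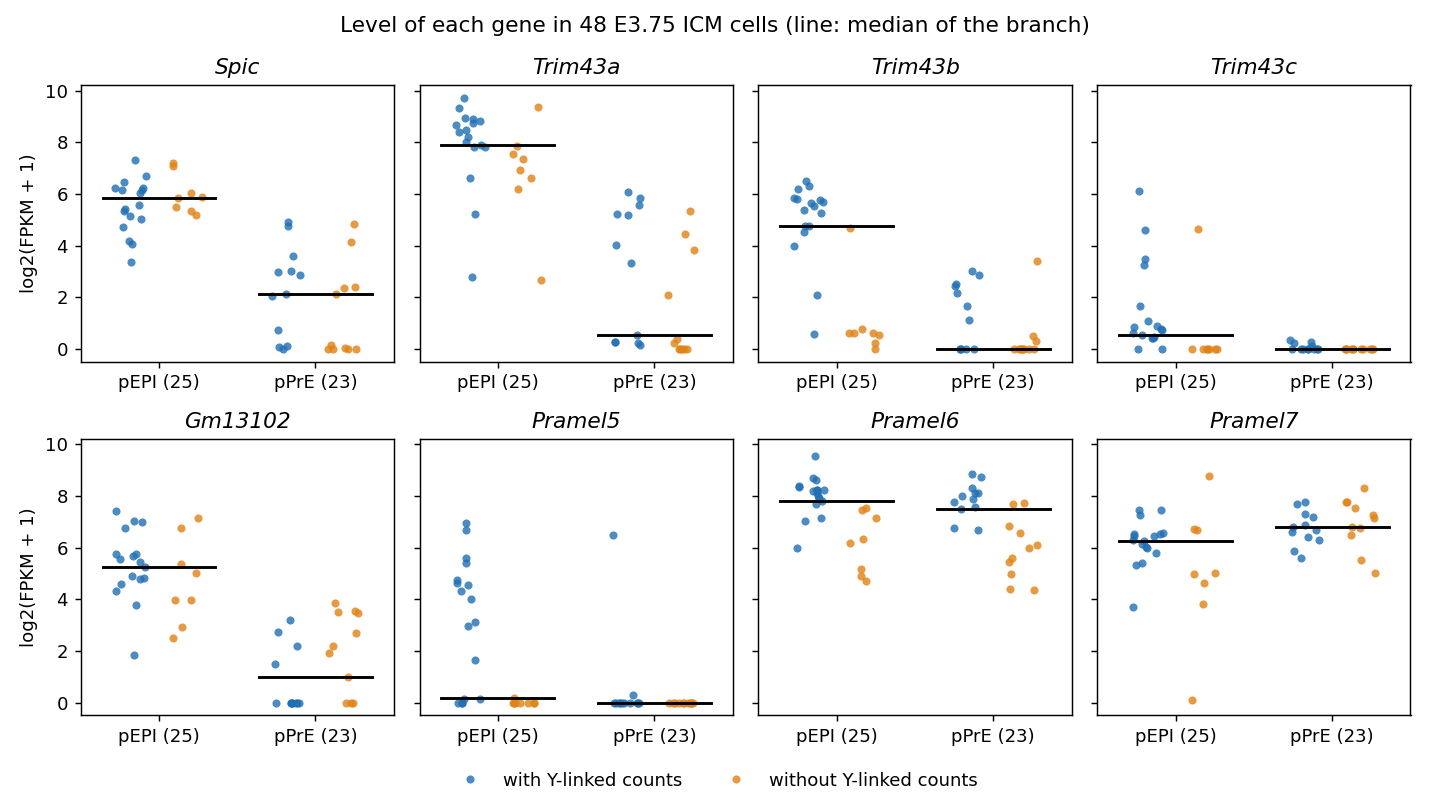
Level of each of the 8 genes, as log2(FPKM + 1) on the vertical axis, in 25 pEPI and 23 pPrE cells; each point is a cell, the line is the median of the branch, and blue and orange separate cells with and without Y-linked counts. *Spic*, *Trim43a* and *Gm13102* sit lower in pPrE cells, *Pramel5* is found almost only among cells with Y-linked counts, and *Pramel6* and *Pramel7* are high in both branches.

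*Spic* ranged from 9.30 to 158.0 FPKM in pEPI cells, with a median of 56.1, and from 0 to 28.9 in pPrE cells, with a median of 3.41. At least 1 count, taken as detection, was found in all 25 pEPI cells and in 18 of 23 pPrE cells (78.3%, exact binomial 95% interval 56.3% to 92.5%). The branches overlapped little, since 21 of 25 pEPI cells were above the highest pPrE cell, which was the cell in well A1. The means were 61.6 ± 39.2 FPKM (SD, n = 25 cells) and 6.55 ± 9.33 (n = 23), and the log2 ratio of these means, pPrE over pEPI, was -3.23. The ratio of the summed counts (22831 and 2421) over summed totals was -3.20 on the same scale, with a 95% interval of -3.26 to -3.14 that covers counting error only. The log2 ratio was -2.85 in cells with Y-linked counts and -3.81 in cells without them.

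*Trim43a* ranged from 5.45 to 851.0 FPKM in pEPI cells, with a median of 240.1. In pPrE cells it ranged from 0 to 67.3 with a median of 0.45, and it was detected in 18 of 23. Of these 23 cells, 12 held fewer than 10 counts and 11 held at least 10. Of the pEPI cells, 22 of 25 were above every pPrE cell. The 3 others were the cells in wells C8, E3 and E7, with 5.45, 5.97 and 36.4 FPKM. The means were 294.8 ± 218.2 and 15.1 ± 21.2 FPKM, a log2 ratio of -4.29, and it was -3.94 in cells with and -4.76 in cells without Y-linked counts.

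*Trim43b* was detected in 24 pEPI and 10 pPrE cells, at medians of 25.9 and 0 FPKM and highest values of 90.7 and 9.56. At least 10 counts were found in 17 of these pEPI and 8 of these pPrE cells. Its means were 29.98 ± 28.1 and 1.73 ± 2.81 FPKM, a log2 ratio of -4.12. It was -4.11 in cells with and -1.91 in cells without Y-linked counts, and the latter rests on single cells. The cell in well F8 held 184 of the 210 pEPI counts of that set, and without it the ratio turned to 1.12. The cell in well D2 held 87 of its 97 pPrE counts, and without it the ratio was -5.71. *Trim43c* was the scarcest member, with 809 counts of 71037 on the 3 genes (1.14%), against 88.6% on *Trim43a* and 10.2% on *Trim43b*. It was detected in 16 of 25 pEPI and 4 of 23 pPrE cells, its pPrE counts were 7 in all, and at least 10 counts were found in 7 pEPI cells and no pPrE cell. Its log2 ratio of -7.43 rests on few cells, with 264 of its 802 pEPI counts in the cell in well F3, and without that cell it was -6.56. As a difference of mean log2(FPKM + 1) it was -1.18.

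The split by Y-linked counts ran through the *Trim43* genes. Per 100 counts of *Trim43a*, pEPI cells with Y-linked counts and at least 100 *Trim43a* counts held between 9.58 and 27.4 counts of *Trim43b*, with a median of 13.3 over 16 cells. The 7 such pEPI cells without Y-linked counts held between 0.174 and 4.31, with a median of 0.385. The ranges did not overlap. The highest of the 7 was the cell in well F8, and the other 6 held at most 0.842. In pPrE cells the values were 8.51 to 16.5 in 6 cells with and 0 to 1.33 in 3 cells without Y-linked counts. *Trim43a* itself was present in both sets of pEPI cells, at means of 343.3 and 191.7 FPKM, whereas *Trim43b* was at 42.4 and 3.50. Each set of cells is made of separate runs of wells. Among pEPI cells with Y-linked counts the median was 13.4 in the 10 cells of wells A1 to C2 and 13.01 in the 6 with enough counts of wells E1 to F3. Among those without them it was 0.385 in 5 cells of wells C3 to D8, and the 2 cells of wells F4 to F8 lay apart at 0.174 and 4.31. The cell in well D2, a pPrE cell without Y-linked counts, went the other way, with 87 counts of *Trim43b* and 0 of *Trim43a*.

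**Figure D2:**
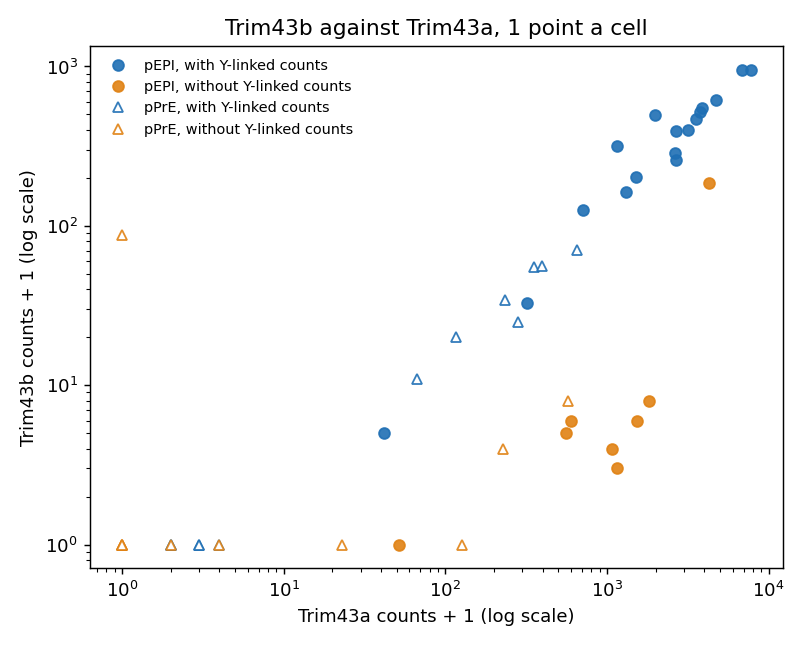
Counts of *Trim43b* (vertical axis) against counts of *Trim43a* (horizontal axis), each plus 1 on a log scale, with 1 point for each of the 48 cells; filled circles are pEPI and open triangles pPrE cells, blue with and orange without Y-linked counts. Blue cells follow a band near 13 counts of *Trim43b* per 100 of *Trim43a*, and orange cells lie below it apart from the cell with 87 counts of *Trim43b* and 0 of *Trim43a*.

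*Gm13102* was found in every pEPI cell, between 2.63 and 169.3 FPKM with a median of 37.2, and in 12 of 23 pPrE cells, up to 13.4 with a median of 1.00. All 12 of these held at least 10 counts, and 21 of 25 pEPI cells were above the highest of them. The means were 52.6 ± 47.8 and 3.33 ± 4.34 FPKM, a log2 ratio of -3.98. In pPrE cells it was detected in 4 of 12 cells with and in 8 of 11 cells without Y-linked counts, with means of 1.6 and 5.22 FPKM. The log2 ratio of pPrE over pEPI was accordingly -5.13 and -3.11. These levels share the limit on placing its reads given above.

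*Pramel5* was the most uneven member. At least 1 count was found in 15 pEPI cells and 2 pPrE cells, and at least 10 counts in 12 and 1 of them. Of its 753 counts in pPrE cells, 751 were in the cell in well A1, at 88.8 FPKM, and without that cell the log2 ratio went from -2.18 to -10.73. That cell stood apart from other pPrE cells in *Nanog* (307.7 FPKM, the highest of its branch) and in *Gata6* (2.80, the lowest of its branch), and held the highest *Spic* of the branch. Its marker score over all listed markers was 1.05, though, on the pPrE side. Among pEPI cells *Pramel5* reached 122.3 FPKM in the cell in well E2, 102.8 in well A2 and 48.1 in well B1. It was detected in 14 of 17 pEPI cells with Y-linked counts (4096 counts) and in 1 of 8 without them (1 count). In the 11 pPrE cells without Y-linked counts it was detected in 0 cells. This allows a share of up to 27.3% by a limit of 3 taken over these 11 cells, and 28.5% by the exact binomial interval. Both limits treat the cells as independent draws, although they are 1 sample. *Pramel5* was thus near 0 in all 19 cells without Y-linked counts, in both branches, while its neighbour *Gm13102* was detected in 16 of them. In the comparison of pEPI cells without over with Y-linked counts, 12.7% of genes were at least 2-fold lower. *Trim43b*, *Trim43c*, *Pramel5* and *Pramel6* were among them. For *Trim43c* the ratio rests on single cells on both sides. Without the cell in well F3 the means were 3.03 and 3.15 FPKM (log2 ratio -0.05). The former mean comes from the cell in well F8 alone, which held 157 of 157 counts. *Trim43c* was detected in 15 of 17 pEPI cells with and in 1 of 8 without Y-linked counts.

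*Pramel6* was detected in all 48 cells. Its values ran from 25.3 to 737.1 FPKM in pEPI cells and from 19.6 to 461.9 in pPrE cells, with medians of 222.3 and 178.8. The branches overlapped almost fully, with 1 pEPI cell above the highest pPrE cell. The means were 226.1 ± 156.2 and 171.7 ± 125.3, a log2 ratio of -0.40. The larger difference was between the sets of cells with and without Y-linked counts, at means of 289.1 and 92.1 FPKM in pEPI cells and 253.3 and 82.7 in pPrE cells. The log2 ratio of cells without over cells with these counts was -1.65 in pEPI and -1.61 in pPrE cells, and in the latter comparison 9.15% of genes were at least 2-fold lower. *Trim43a* (7.08 and 22.4 FPKM, -1.66) and *Trim43b* (-1.40) were among them. In pPrE cells without Y-linked counts the cell in well F7 held 575 of 952 *Trim43a* counts, and that in well D2 held 87 of 97 *Trim43b* counts. *Trim43c* and *Pramel5* had 0 counts in pPrE cells without Y-linked counts. *Gm13102* was higher there (1.71), and 11% of genes were at least 2-fold higher in this comparison. Within either set, the log2 ratio of pPrE over pEPI for *Pramel6* was -0.19 and -0.15.

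*Pramel7*, the other gene of the pair on chromosome 2, was also detected in all 48 cells but leaned to the other side. It ranged from 0.08 to 433.6 FPKM in pEPI cells, with a median of 75.9, and from 31.6 to 313.0 in pPrE cells, with a median of 110.2. Of the pPrE cells, 19 of 23 were above the median pEPI cell. The means were 87.3 ± 85.7 and 131.5 ± 69.2, a log2 ratio of 0.59, which became 0.85 without the pEPI cell in well F4, the highest of all cells. The log2 ratio was 0.47 in cells with and 0.66 in cells without Y-linked counts, and the latter became 1.75 without the cell in well F4. The lowest pEPI cell, in well C4, held 1 count. The SDs between cells were larger than the differences between the branches for *Pramel6* and *Pramel7*. Among pEPI cells the SD was also larger than that difference for *Pramel5* (17.5 ± 31.8 in pEPI and 3.87 ± 18.5 FPKM in pPrE cells). The same held for *Trim43c* (5.71 ± 14.6 and 0.033 ± 0.080 FPKM). The coding sequences of *Pramel6* and *Pramel7* were 72.1% identical.

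Counted per cell, pEPI cells held a median of 8 of the 8 genes (5 to 8) and pPrE cells a median of 5 (2 to 7). All 8 were detected in 13 pEPI cells and in no pPrE cell. Of the other pEPI cells, 6 lacked *Trim43c* and *Pramel5*, 3 lacked *Pramel5*, 2 lacked *Trim43c*, and 1 lacked *Trim43b*, *Trim43c* and *Pramel5*. Of the 13, the cells in wells A4, B1, B4, C1, C2, E2, E4 and F1 held 3 to 9 counts of *Trim43c*. *Pramel5* was at 1 count in the cells in wells C1 and F8. At least 10 counts of every member were found only in the cells in wells A2, A6, A7 and F3. *Spic*, *Trim43a* and *Gm13102* together with *Pramel6* and *Pramel7* were in every pEPI cell. Only *Pramel6* and *Pramel7* were in every pPrE cell, and in the cells in wells C5 and D1 they were the sole members detected. The members detected formed 14 different sets among the 23 pPrE cells. When every cell was thinned to 1718970 counts, the medians were 7 and 5. Cells without Y-linked counts held fewer members in both branches, with medians of 6 and 4 against 8 and 5.5.

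**Figure D3:**
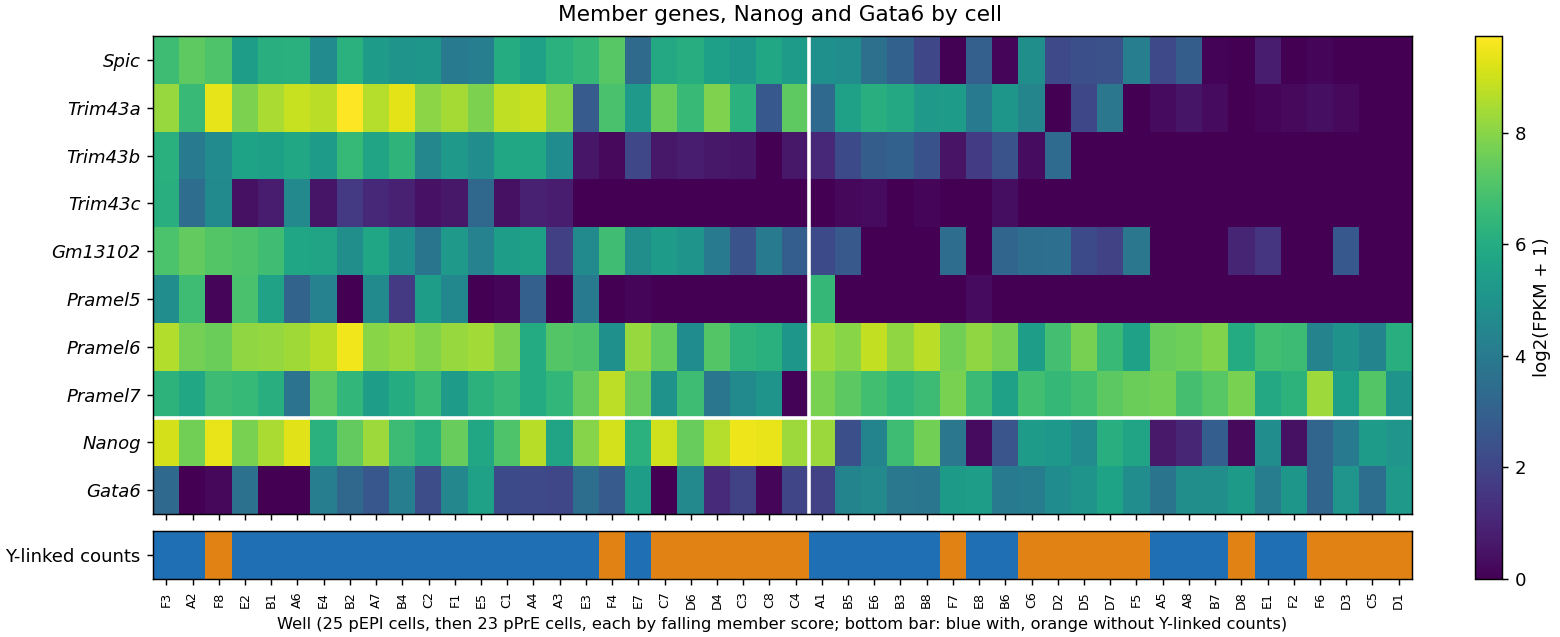
Level of the 8 genes, *Nanog* and *Gata6* as log2(FPKM + 1), in colour, with 1 column for each cell, named by its well; 25 pEPI cells are left of the white line and 23 pPrE cells right of it, each in falling order of the mean standardized level of the 8 genes, and the bar below marks cells with (blue) and without (orange) Y-linked counts. The rows of *Spic*, *Trim43a* and *Gm13102* darken at the line, those of *Pramel6* and *Pramel7* do not, and the cell in well A1 holds *Pramel5* and *Nanog* at the left edge of the pPrE cells.

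Co-expression over cells was described by Spearman's rho of FPKM, with no p-value since cells are not replicates. The cells share library preparation, depth and branch, and the members were listed for a common difference between branches, so a positive rho over all cells is in part fixed by the choice of genes. Over the 48 cells the 28 pairs had a median rho of 0.55, from -0.35 to 0.86. The 3 pairs within *Trim43* were the closest, at 0.86 for *Trim43a* and *Trim43b*, 0.85 for *Trim43b* and *Trim43c* and 0.78 for *Trim43a* and *Trim43c*. *Spic* and *Gm13102*, on different chromosomes, followed at 0.77, and *Spic* and *Trim43a* at 0.73. All 7 pairs with *Pramel7* were below 0.

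Within the branches the correlations were weaker, at a median of 0.30 among pEPI and 0.22 among pPrE cells. *Trim43a* and *Trim43b* stayed at 0.83 and 0.63. *Spic* and *Trim43a*, at 0.73 over all cells, were at 0.02 within pEPI and 0.51 within pPrE cells. *Spic* and *Gm13102* were at 0.42 and 0.27. *Gm13102* and *Pramel5*, whose promoters are shown above, were at 0.61 within pEPI cells and at -0.04 within pPrE cells, of which 1 held both. The former was the closest pair there that was not within *Trim43* or with *Pramel6*. *Pramel6* went with *Trim43b* at 0.69 within pEPI and 0.66 within pPrE cells, and both genes were lower in cells without Y-linked counts. Within the 17 pEPI cells with Y-linked counts the median of the 28 pairs was 0.10, with *Trim43a* and *Trim43b* still the highest at 0.85. Within the 8 pEPI cells without them the median was 0.57, though *Trim43c* and *Pramel5* were each detected in 1 of these cells. Among pPrE cells it was 0.29 in the 12 with and 0.25, over 15 pairs, in the 11 without Y-linked counts.

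**Figure D4:**
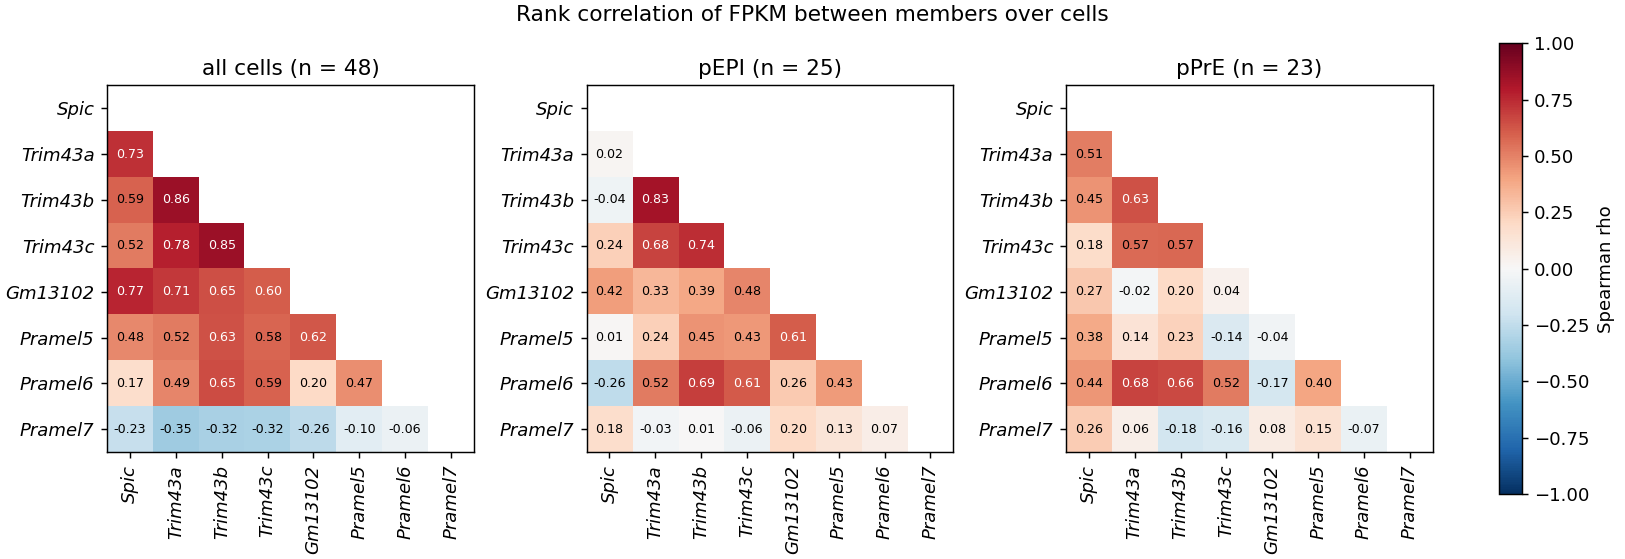
Spearman's rho of FPKM for the 28 pairs of the 8 genes over all 48 cells, over 25 pEPI cells and over 23 pPrE cells, from blue (-1) through white (0) to red (1), with the value in each square. Pairs within *Trim43* keep high values in every panel, and pairs with *Spic*, which reach 0.77 over all cells, run from -0.26 to 0.42 within pEPI cells.

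Members also differed in how they followed *Nanog* and *Gata6*. *Nanog* was at 314.8 ± 221.0 FPKM in pEPI and 43.7 ± 73.0 in pPrE cells, and *Gata6* at 9.61 ± 12.54 and 24.4 ± 12.2. Over all cells *Spic* had the highest rho with *Nanog* (0.78) and the lowest with *Gata6* (-0.70). *Gm13102* was at 0.70 and -0.46 and *Trim43a* at 0.62 and -0.50. *Pramel6* was near 0 with both (0.10 and 0.01), and *Pramel7* was at -0.42 and 0.38. Within pEPI cells alone *Pramel7* was at 0.55 with *Gata6*, and within pPrE cells at -0.19. Within pEPI cells, *Spic* was at 0.41 with *Nanog* and -0.47 with *Gata6*. These were 0.47 and -0.68 in the 17 pEPI cells with Y-linked counts, and -0.05 and 0.12 in the 8 without them. Within all pEPI cells *Trim43a* was at -0.09 and -0.02. *Gm13102* was at 0.30 with *Nanog* in pEPI cells, at 0.71 in the 17 of them with and at 0 in the 8 without Y-linked counts.

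The mean standardized level of the 8 genes, called the member score, had a rho of 0.58 with *Nanog* and -0.43 with *Gata6* over all cells, and of -0.16 with the total count. Within pEPI cells both were near 0 (-0.072 and 0.0058), and within pPrE cells they were 0.23 and -0.19. In pEPI cells *Nanog* and the score differed in opposite ways between the sets of cells. *Nanog* was higher in pEPI cells without Y-linked counts (mean 504.3 FPKM) than in those with them (225.7), whereas the median member score was -0.19 and 0.62. Not every member went with the score, since *Spic* was at 72.2 and 56.6 FPKM and *Pramel7* at 92.3 and 85.0. The rho of the score with *Nanog* was 0.48 within the 17 pEPI cells with Y-linked counts and 0.19 within the 8 without them.

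The genes most like the group were named by the rho of each of 10382 genes to the member score. Highest were *Pdp2*, a pyruvate dehydrogenase phosphatase (0.82), and *Tmem41b*, a scramblase of the endoplasmic reticulum that acts in autophagy (0.81). *Gm7792*, *Ppm1a*, *Gm6223*, *Crxos*, *Dhcr7*, *Etfb*, *Sfn* and *Bcl2l14* followed, from 0.79 to 0.72. *Crxos* is a homeobox gene of early embryos, *Sfn* encodes 14-3-3 sigma and *Dhcr7* the last enzyme of cholesterol synthesis. *Tmem41b* was at 176.4 FPKM in pEPI and 38.4 in pPrE cells, and *Pdp2* at 34.4 and 5.59. Among those at the other end were *F2r*, the thrombin receptor (-0.79, with 0.73 and 31.9 FPKM), *Ctsl*, *Ckap4* and *Tfpi*.

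Gene by gene, *Tmem41b* was among the 3 closest partners of 5 members and *Pdp2* among those of all 3 *Trim43* genes. *Spic* was most like *Klf2* (0.80), *Tmem41b* (0.78) and *Nanog* (0.78), of which *Klf2* and *Nanog* are factors of naive pluripotency. *Gm13102* was most like *Tmem41b* (0.82), *Sfn* (0.82) and *Pramel4* (0.82), the last of which shares most of its sequence. *Trim43a* was most like *Pdp2* (0.80), *Aebp2* and *Tmem41b*, *Trim43b* like *Tmem41b* (0.75), *Gm7792* and *Pdp2*, and *Trim43c* like *Etfb* (0.71), *Pdp2* and *Ppm1a*. *Pramel5* was most like *Serinc3* (0.72), *Tmem41b* and *Ctsd*. *Pramel6* had other partners, *Pigp* (0.70), *Gabarapl2* and *Gm7792*. *Pramel7* was most like *Sdc4* (0.57), *Cubn* and *Fkbp15*, of which *Cubn* is among the pPrE markers. No gene came closer to *Pramel7* than 0.57.

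The rest of the *Prame* family gave context for its 4 members. The family has 39 protein-coding genes in the table, found by symbol, of which 16 had a count and 9 a mean of at least 1 FPKM. Of these 9, 5 were at least 2-fold lower in pPrE cells, none was higher and 4 were neither. Over all genes tested 9.03% were lower, and *Gm13102* and *Pramel5*, 2 of the 5, had been chosen for this difference. The genes that are no members were led by *Pramel4* (31.99 ± 28.8 FPKM in pEPI and 3.88 ± 5.10 in pPrE cells, log2 ratio -3.04), *Gm13128* (22.4 and 12.8, -0.81) and *Pramef8* (8.01 and 6.25, -0.36). *Pramef12* (4.35 and 2.12, -1.04) and *B020031M17Rik* followed, the latter with 2.88 FPKM in pEPI and 0 counts in pPrE cells, and *Pramel1* was at 1.12 and 0.72. *Pramel4* was detected in 24 of 25 pEPI and 16 of 23 pPrE cells. Of its windows of 150 bases, 70.9% also occurred in *Gm13102*, so its level shares the limit on placing reads given for that gene. *Prame* itself, on the X chromosome, and the oocyte genes *Oog1*, *Oog2*, *Oog3* and *Oog4* had 0 counts in all cells.

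**Figure D5:**
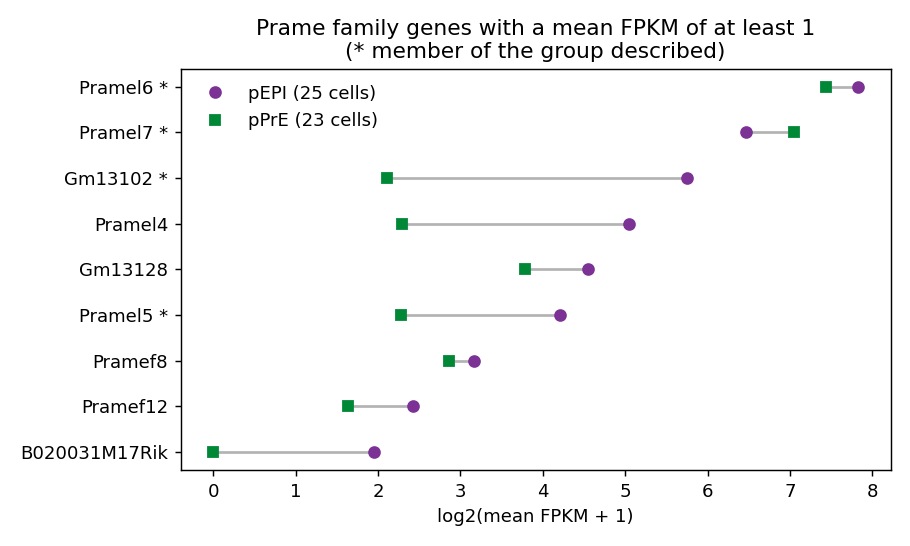
Mean level of the 9 *Prame* family genes with a mean of at least 1 FPKM, as log2(mean FPKM + 1), in 25 pEPI cells (circles) and 23 pPrE cells (squares), with a line joining the branches; an asterisk marks the 4 genes of the group. *Gm13102*, *Pramel4*, *Pramel5* and *B020031M17Rik* have the widest gaps, and *Pramel7* alone is higher in pPrE cells.

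Neighbours of the members did not share one pattern. Beside *Gm13102* and *Pramel5*, *Pramel4* lies before the pair and *Gm13128* after it, and the 3 genes between the pair (*Oog3*, *Oog2* and *C87977*) had 0 counts. On chromosome 9, *Zfp949*, 9830 bases before *Trim43a*, was at 11.6 and 6.85 FPKM in pEPI and pPrE cells. *Mthfsl*, which lies among the *Trim43* genes, was higher in pPrE cells (7.34 and 11.1), and *Bcl2a1d*, *Bcl2a1a* and *Bcl2a1b* had 0 counts. Next to *Spic*, *Arl1* was at 95.05 and 83.6 FPKM and *Mybpc1*, a muscle gene, at 3.54 and 0.71 (log2 ratio -2.32, detected in 13 pEPI and 6 pPrE cells). The olfactory receptor genes on either side of *Pramel7* and *Pramel6* had 0 counts (*Olfr1126*) and 103 counts in 5 cells (*Olfr153*).

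Genes of related pathways and of earlier stages were read from lists, as counts of those with a mean of at least 1 FPKM that differed at least 2-fold. Over all genes tested, 9.03% were lower and 6.2% higher by that much. Among 24 ETS factors, 11 had that mean, of which 2 were lower in pPrE cells (*Spic* and *Etv5*), 1 was higher (*Elf3*) and 8 were neither. *Spic* had been chosen for this difference. *Spi1*, which encodes PU.1 of the SPI group, was at 7.36 ± 6.76 and 3.90 ± 5.73 FPKM, and *Spib* had 1 count. *Etv5*, a target of FGF signalling, was at 62.4 and 20.98 FPKM. Of 7 other TRIM genes with that mean, among them *Trim28* (109.0 and 90.2 FPKM), *Trim27*, *Trim6* and *Trim25*, all 7 were neither.

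For the ubiquitin ligase of PRAMEL7, *Cul2* was at 76.1 and 50.5 FPKM in pEPI and pPrE cells, *Elob* at 198.7 and 224.3, *Eloc* at 307.7 and 198.2 and *Rbx1* at 84.3 and 77.4. Its known target *Uhrf1* was at 128.6 ± 45.1 and 97.1 ± 39.9 and *Dnmt1* at 11.2 and 8.01, and these 6 genes differed less than 2-fold. The de novo methyltransferase genes *Dnmt3a* (2.05 and 9.36), *Dnmt3b* (14.8 and 71.6) and *Dnmt3l* (35.3 and 95.6) were the 3 of 11 genes in this list that were at least 2-fold higher in pPrE cells. Of the 10 genes of the LIF and STAT3 pathway, which maintains naive pluripotency, only *Gbx2* was past 2-fold (1.22 and 4.05), and *Stat3* was at 16.6 and 10.3. *Lifr* was at 6.11 and 7.75 FPKM.

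Genes of earlier stages are set beside the same shares over all genes. Of 15 genes of the morula and early ICM, 3 were at least 2-fold lower (*Tfap2c*, *Morc1* and *Obox6*) and 12 were neither, among them *Dppa5a* (8336 and 7246 FPKM), *Dppa3* (1374 and 958.1), *Pou5f1* (369.0 and 345.1) and *Dppa2* (443.6 and 224.1, log2 ratio -0.99). *Tfap2c* was at 24.55 ± 21.8 and 1.70 ± 3.09, a log2 ratio of -3.85 near that of *Gm13102* and *Trim43a*. Of 4 maternal effect genes, 1 was lower (*Zp3*), while *Khdc3* was at 560.1 and 368.4 and *Ooep* at 26.6 and 23.5. Genes of the 2-cell stage were close to absent. None of 18 reached a mean of 1 FPKM, 10 had 0 counts, including *Zscan4a* to *Zscan4f* and *Zfp352*, and *Tmem92* led with 1.26 and 0.28 FPKM.

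Trophectoderm markers were read beside the members, and their part in the results was not tested. Of 12 listed, 5 had a mean of at least 1 FPKM, of which *Krt18* and *Krt19* were at least 2-fold lower in pPrE cells and 3 were neither. Among all genes tested the shares were 9.03% lower and 6.2% higher, and nothing is read from so few markers. The summed level of the 12 listed was 14.8 to 718.0 CPM (counts scaled to the cell's total) in pEPI and 43.8 to 721.8 in pPrE cells, and its rho with the member score was -0.15. *Krt8* was at 40.2 ± 43.3 and 27.95 ± 22.7 FPKM and *Fabp3* at 135.5 and 244.1, whereas *Cdx2*, *Elf5* and *Krt7* were at or near 0 in most cells.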

How the data were processed

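Counts of 49671 genes in 48 cells were deposited by the authors as whole-number counts without normalization, made with STAR and HTSeq per the labels, on mm10 and Ensembl 87 genes. Cells below 500000 mapped reads, or with reads skewed along genes, had been dropped by the authors. Library sizes were the median of ratios, and FPKM used exon lengths of GENCODE M21 (21858 of 21943 genes with counts; the other 85 held 0.0146% of counts). Log2 values used a pseudocount of 1, and detection means at least 1 count. Members, lists and rules were chosen with earlier results of these data known. Named genes were the members, *Nanog*, *Gata6*, the 6 most abundant other *Prame* genes, the genes most and least like the members, up to 4 of each list and neighbours; list genes past 2-fold were also named, after their values were seen. A gene that these rules name is not reported here. Well numbers carry no embryo, cells are no replicates, and no test was run. Depth was 1718970 to 7342785 counts per cell; reads without molecular identifiers are not independent, so intervals (95%) cover counting error only, and binomial ones treat cells as independent draws. The limit behind 0 cells detected is 3, taken over the cells of the group. Doublets were not called, as cells were picked singly into 8-well strips. The ratio and correlation steps were tested on simulated data. Values were computed in Python 3.11.15 (pandas 2.3.3, numpy 2.4.6, scipy 1.17.1), plots drawn with matplotlib 3.10.9, and TMM factors, an alternative, taken from edgeR 4.0.16 under R 4.3.3. Alternatives covered library size, thinning, grouping, summary, detection and subsets of cells. Protein sequences and the promoters of *Trim43b* and *Trim43c* were not used here.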

Additional observations from a re-analysis of the deposited data

How the results depend on the processing

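Counting a gene at 0 in pPrE cells as lower, 6 genes were at least 2-fold lower in each of 18 alternatives. In cells without Y-linked counts, though, *Pramel5* (1 pEPI count) and *Trim43c* (157 pEPI counts in 1 cell) had 0 pPrE counts and no ratio, and 4 genes had a ratio past 2-fold. Of all genes tested, 12.6% were at least 2-fold lower in pPrE cells in that set, and 11% in cells with Y-linked counts. Since the members were chosen for this difference, nothing is read from these numbers of members. The median of 5 genes detected per pPrE cell moved between 4 and 5.5. The median in pEPI cells, 8, became 7 after thinning, when cells were grouped by the higher of *Nanog* and *Gata6*, or without the cells of well letter A or F, and 6 at 10 CPM or with cells without Y-linked counts alone. The median rho over pairs, 0.55, lay between 0.22 and 0.59. The rho of the member score with *Nanog*, 0.58, became 0.75 with cells with Y-linked counts alone and 0.75 without the cells of well letter C, 0.23 within pPrE cells, and turned to -0.072 within pEPI cells; that with *Gata6*, -0.43, turned to 0.0058 within pEPI cells. The cause was not tested. Ratios of single genes kept their sign in these alternatives; within cells without Y-linked counts, that of *Trim43b* turned to 1.12 without the cell in well F8. *Trim43b* moved from -4.12 to -1.91 in cells without Y-linked counts, and *Pramel5* to -10.35 without the cells of well letter A, -9.90 when grouped by *Nanog* and *Gata6*, which placed 9 cells on the other side, and -10.73 without the cell in well A1. *Trim43c* was at -9.11 and -5.89 without the cells of well letter B and F. Without a filter on low values 23.3% of genes were at least 2-fold lower. The alternatives without the cells in wells A1, D2, F3, F4 and F8 were chosen after seeing the data. Counts were fewest for *Trim43c*, with 809 in all. No paired analysis was possible because all cells are 1 sample and replicate numbers only name cells.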
